A study of Mus musculus with 12 samples.

Results

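Elastic fibres are made of an elastin core and a sheath of microfibrils, and the 9 genes described here encode their main proteins: elastin (Eln), the fibrillins (Fbn1, Fbn2), the microfibril-associated glycoproteins (Mfap2, Mfap5), a latent TGF-beta binding protein (Ltbp1), Emilin1 and the fibulins Fbln2 and Fbln5. Every probe set whose annotation names 1 of these genes was taken, which gave 17 probe sets for 8 of the 9 genes, out of 45037 probe sets and 18193 genes in the table. Fbn1 was not analysed here, because the annotation used pairs none of the probe sets with it. Each gene was represented by its brightest probe set, the one with the highest mean over all arrays, and every probe set was also tested separately.

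The samples were 12 Affymetrix mouse arrays, 3 for each of 4 groups. A wild-type line, STHdhQ7/Q7, called Q7 cells here, and a mutant line, STHdhQ111/Q111, called Q111 cells, came from the striatum of embryos. The mutant line carries a knock-in huntingtin gene with a longer glutamine repeat. Both lines grew at 33 °C in medium with serum and the selection drug G418, and the remaining groups were the same lines after 6 h at 42 °C (heat shock). Each genotype was 1 cell line, so the genotype and any other difference between the lines cannot be told apart. Values are log2 levels as deposited, so a difference of 1 is a doubling, and each difference is given with its standard error (SE). The labels do not name separate cultures for the replicates, and p-values then reflect only how these samples scatter, which may be technical. A level at or under 5.14, the highest value of 27 probe sets for bacterial RNA, is called background range. A gene was called changed at a limma p under 0.05 after Benjamini-Hochberg adjustment over all 18193 genes.

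In a microfibril, fibrillin molecules join end to end into beaded filaments, and the small glycoproteins Mfap2 and Mfap5 attach to the beads. Latent TGF-beta binding proteins sit on these filaments and store the growth factor in the matrix. Tropoelastin is laid on the microfibrils with the help of fibulins and is crosslinked by lysyl oxidases. In the brain such fibres are best known from the walls of blood vessels and the meninges, not from neurons.

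The arrays carried signs of RNA quality and of cell type that moved with the groups. The 3' minus 5' level of the actin control probe sets, which grows as RNA degrades or is copied short, was 0.54 ± 0.16 in untreated Q7 cells, 1.48 ± 0.12 in heat-shocked Q7 cells, 0.72 ± 0.36 in untreated Q111 cells and 1.25 ± 0.23 in heat-shocked Q111 cells (mean ± SD, n = 3 arrays). Untreated Q111 replicate 2 stood apart, at 1.14 against 0.49 and 0.53 for the other arrays of its group. Among 11 fibroblast and mesenchymal markers 7 were above background range on all arrays, and Lum, Thy1 and Fap were at or under it on all of them. The summed log2 level of these markers ran from 15.02 to 15.11 in untreated Q7 cells, 14.77 to 14.80 in heat-shocked Q7 cells, 15.45 to 15.53 in untreated Q111 cells and 14.87 to 15.00 in heat-shocked Q111 cells. It was thus higher in Q111 cells and lower after heat shock, but as a sum of linear levels it is weighted to the brightest markers. Of the 11 markers 2 were called higher and none lower in Q111 cells at 33 °C, where 10.8% of all genes were called. After heat shock 2 were higher and 5 lower in each line, where 30.4% of all genes were called in Q7 and 48.1% in Q111 cells. The part of these markers in the results was not examined by any test. The label names striatal cells. The neural progenitor markers differed between the lines: of 9 measured, 4 were lower and 1 was higher in Q111 cells at 33 °C, and 4 were above background range on all arrays. The transcription factor genes Sox2 (-5.89) and Pax6 (-4.59), the intermediate filament gene Nes (-3.60) and the fatty acid binding protein gene Fabp7 (-2.58) were the lower ones. The untreated Q111 means of Sox2, Pax6 and Fabp7 (4.71, 5.00 and 4.25) were in background range, so the sizes of their differences are poorly measured. The summed level of all 9 progenitor markers was 14.10 to 14.14 in untreated Q7 and 13.86 to 13.97 in untreated Q111 cells, and 13.92 to 14.00 and 13.47 to 13.62 after heat shock. The brightest of them, Vim, read 13.80 in untreated Q7 and 13.78 in untreated Q111 cells, so the sum says little of the 4 lower genes. Of 10 neuron markers 2 were lower in Q111 cells at 33 °C, among them Stmn2 (-6.57), and 1 was above background range on all arrays. Their summed level was 11.54 to 11.89 in untreated Q7 and 9.44 to 9.91 in untreated Q111 cells, and 11.44 to 11.63 and 9.79 to 9.96 after heat shock. Stmn2, the brightest of them in Q7 cells, read 11.20 there and 4.63, in background range, in untreated Q111 cells. The sum thus largely follows this 1 gene between the lines. Heat shock raised 1 of the 10 in Q7 and 5 in Q111 cells and lowered none, where 30.4% and 48.1% of all genes were called. The part of these markers in the results was not tested. Only 3 of 10 measured striatal projection neuron markers were above background range on all arrays. The receptor gene Drd2 lay in background range on every array, with group means of 2.95 to 3.06, and the signalling gene Ppp1r1b reached at most 5.20. Other genes of this list were brighter: Foxp1, Meis2 and Tac1 had means of 10.82, 10.42 and 7.38 in untreated Q7 cells. In Q111 cells at 33 °C 1 of the 10 was higher, Foxp1 (0.87), and 2 were lower, Tac1 (-4.10) and Meis2 (-1.44). The untreated Q111 mean of Tac1, 3.28, was in background range, so the size of its difference is poorly measured. Of 8 endothelial markers none was above background range on all arrays and 6 were at or under it on all, among them Pecam1 and Cdh5.

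The promoters of Emilin1 and Fbln2 are shown because these genes were both higher in Q111 cells and both lower after heat shock in Q7 cells. Each sequence is the 250 bases before the RefSeq transcript start on GRCm38.p6, 5′ to 3′ on the plus strand, from chr5:30913536-30913785 for Emilin1 and chr6:91212514-91212763 for Fbln2. Capitals mark the letters GGGCGG on the opposite strand, a GC box of the kind bound by Sp1.
Emilin1: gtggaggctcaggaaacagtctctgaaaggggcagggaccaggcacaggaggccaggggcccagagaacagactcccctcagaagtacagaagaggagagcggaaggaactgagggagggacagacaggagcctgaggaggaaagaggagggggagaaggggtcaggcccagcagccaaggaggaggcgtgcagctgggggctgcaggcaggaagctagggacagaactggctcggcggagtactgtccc
Fbln2: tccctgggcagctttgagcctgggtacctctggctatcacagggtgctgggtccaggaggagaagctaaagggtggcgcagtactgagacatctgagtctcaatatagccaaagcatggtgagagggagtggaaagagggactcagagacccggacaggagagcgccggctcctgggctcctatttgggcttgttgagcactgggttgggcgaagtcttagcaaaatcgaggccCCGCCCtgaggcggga
RefSeq windows of 300 bases, 250 before and 50 after a start, were searched for 5 of the 8 genes (Emilin1, Fbln2, Fbln5, Mfap2 and Ltbp1), with 8 windows in all. The search skipped any window of the 8 genes on a chromosome that was left out, while the share over all windows kept that chromosome. No window of Fbn2, Mfap5 or Eln was searched, which does not say that none exists. The core letters of a heat shock element, GAANNTTC or TTCNNGAA, were searched on both strands and were found in none of the 8 windows. They stand in 7.86% and 8.52% of all 32851 mouse windows of this length. TATAAA and TGANTCA were also in none of the 8, against 13.6% and 7.81% of all windows. GGGCGG was in 3 of 8 against 35.7%, and CATTCC in 1 of 8 against 14.7%. A missing match says only that these letters are not in these windows.

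At 33 °C, Q111 cells had far more RNA of the microfibril genes Fbn2 and Mfap5 than Q7 cells, and more of Emilin1 and Fbln2. Of the 8 genes 4 were higher in Q111 cells and 1, Mfap2, was lower, with a median difference of 1.21. In this comparison 10.8% of all genes were called, 5.11% as higher and 5.68% as lower, and the median over all genes was -0.00415. The plot of levels on each array shows the 8 genes side by side. In bulk RNA a smaller share of cells that use a gene and less RNA per cell cannot be told apart.

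**Figure D1:**
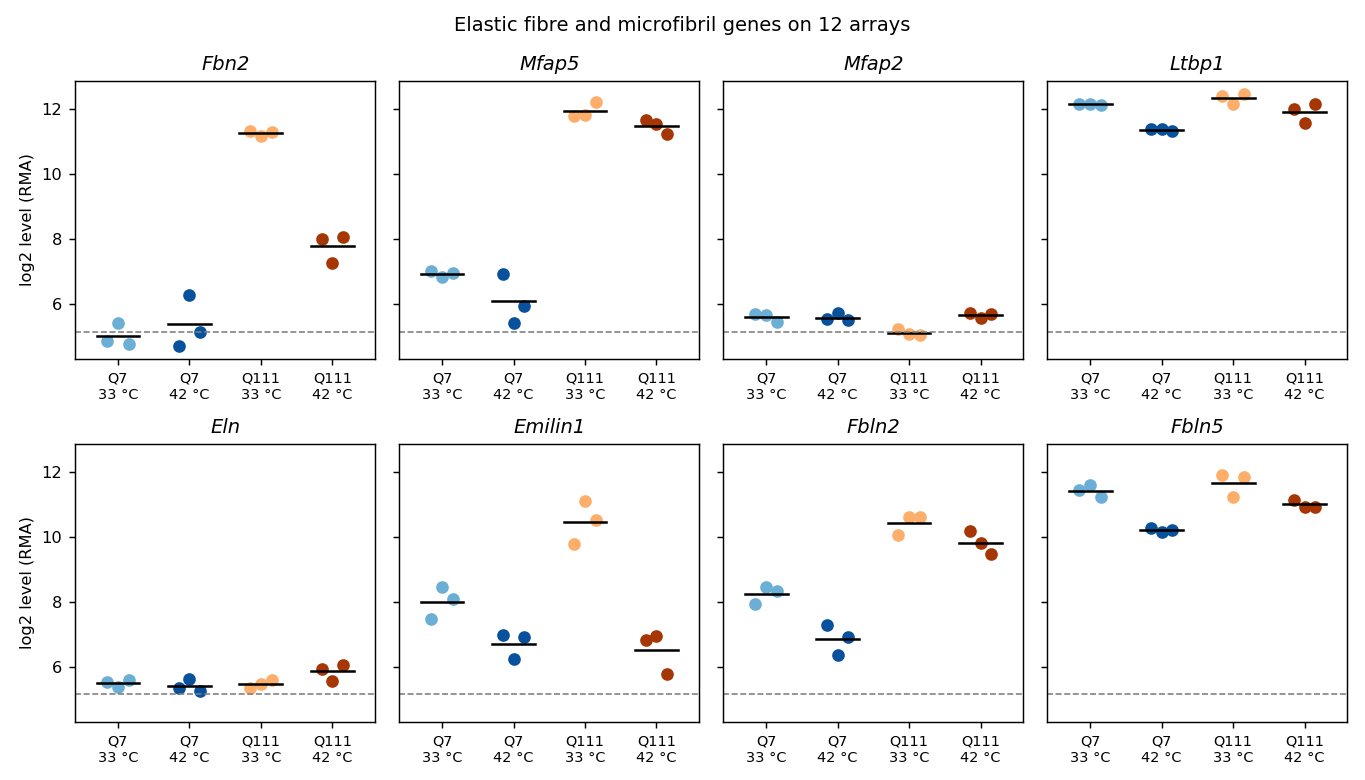
Log2 level of each gene's brightest probe set (vertical axis) on the 12 arrays, in 4 groups of line and temperature. Points are arrays, bars are group means of 3 arrays and the dashed line is the bound of background range at 5.14. The untreated Q111 arrays of Fbn2 lie between 11.18 and 11.33, while at most 1 Q7 array in each group lies above the bound.

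Among the microfibril genes, Fbn2, a fibrillin known chiefly from developing tissue, read 4.85, 5.39 and 4.77 on the untreated Q7 arrays and 11.33, 11.18 and 11.31 on the untreated Q111 arrays. The groups were far apart, and only 1 of the 3 Q7 arrays was above background range, so the Q7 level is poorly measured. The difference was 6.27 (SE 0.36, adjusted p = 6.47e-07), or 77.0-fold on these values. Mfap5, also called MAGP-2, read 7.02, 6.84 and 6.94 in Q7 cells and 11.80, 11.83 and 12.24 in Q111 cells. All these arrays were above background range, and the difference was 5.02 (SE 0.31, adjusted p = 1.02e-06), or 32.5-fold. Its relative Mfap2, or MAGP-1, went the opposite way and was near background range throughout, at 5.70, 5.66 and 5.45 in Q7 cells against 5.21, 5.07 and 5.05 in Q111 cells. The difference of -0.49 (SE 0.13, adjusted p = 0.0276) was a small one and lost its call in 11 of 19 alternatives (adjusted p up to 0.734), among them the fits without untreated Q7 replicate 1 or 2 or untreated Q111 replicate 2 or 3 (adjusted p from 0.0798 to 0.102). Ltbp1, which ties latent TGF-beta to the matrix, ran from 12.13 to 12.17 in Q7 cells and read 12.42, 12.18 and 12.49 in Q111 cells. Its groups did not overlap, but the difference of 0.21 (SE 0.16, adjusted p = 0.601) did not pass the test.

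Elastin itself was close to background range in both lines. Eln read 5.52, 5.36 and 5.58 in Q7 cells and 5.35, 5.46 and 5.58 in Q111 cells, so the arrays overlapped (difference -0.02, SE 0.16, adjusted p = 0.982). Emilin1, a glycoprotein of the border between elastin and microfibrils that also limits TGF-beta maturation, read 7.46, 8.47 and 8.10 in Q7 cells and 9.78, 11.11 and 10.51 in Q111 cells. The groups were apart by 2.46 (SE 0.41, adjusted p = 0.00166), or 5.51-fold, and the highest of these arrays was replicate 2 of the Q111 cells, which also stood apart in its actin value. Fbln2, a fibulin of microfibrils and basement membranes, read 7.94, 8.47 and 8.34 in Q7 cells and 10.05, 10.62 and 10.63 in Q111 cells. Every Q111 array was above every Q7 array, and the difference was 2.18 (SE 0.27, adjusted p = 0.000229), or 4.54-fold. Fbln5, which binds tropoelastin and is needed for elastic fibre assembly, read 11.46, 11.61 and 11.23 against 11.91, 11.23 and 11.85. These arrays overlapped (0.23, SE 0.19, adjusted p = 0.621).

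Same-numbered untreated arrays of the lines deviated together. With the replicate number as a block and only the untreated arrays in the fit, 3600 genes were called in place of 1962, and 5 of the 8 genes were called as before. With each array centred on ribosomal protein genes, 57.7% of the called genes were higher in Q111 cells in place of 47.3%.

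**Figure D2:**
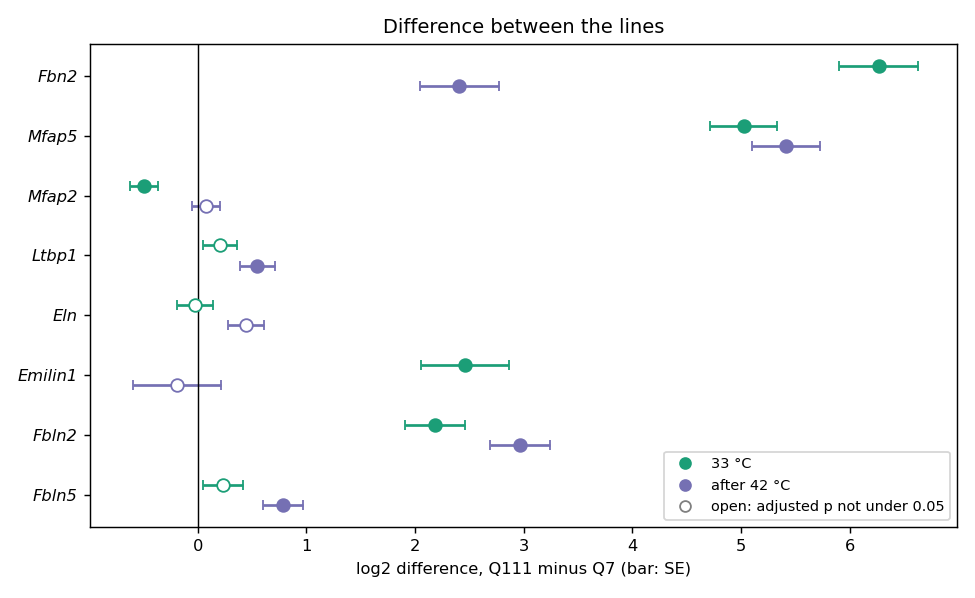
Difference between the lines, Q111 minus Q7, in log2 units (horizontal axis) for the 8 genes at 33 °C and after 42 °C. Points are limma estimates from 3 arrays a group, bars are 1 SE, and open points did not pass at an adjusted p of 0.05. Fbn2 and Mfap5 lie farthest to the right at 33 °C, at 6.27 and 5.02, and Emilin1 moves from 2.46 to -0.19.

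In Q7 cells heat shock lowered Emilin1, both fibulins and Ltbp1, while the levels of elastin, Fbn2, Mfap2 and Mfap5 did not pass the test. None of the 8 genes rose and 4 fell, with a median change of -0.817. Of all genes 30.4% were called, 18.1% as lower and 12.3% as higher, and the median over all genes was 0.00263. Heat shock moved much of the table, so these 4 falls are among 3293 in all.

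Ltbp1 fell from the range given above to 11.40, 11.39 and 11.32, below every untreated array (-0.78, SE 0.16, adjusted p = 0.00314). Mfap5 read 6.92, 5.40 and 5.92 after heat shock, and its replicate 1 lay within the untreated range. The change of -0.85 (SE 0.31, adjusted p = 0.0588) did not pass, and without that heat-shocked replicate it was -1.27 and passed (adjusted p = 0.0018). Fbn2 read 4.69, 6.29 and 5.12, with only replicate 2 above background range (0.36, SE 0.36, adjusted p = 0.511). A fall of Fbn2 could hardly be seen in Q7 cells, since the untreated level was already in that range. Mfap2 read 5.52, 5.72 and 5.49 (-0.03, SE 0.13, adjusted p = 0.891), and Eln read 5.35, 5.61 and 5.25 (-0.08, SE 0.16, adjusted p = 0.747). Both overlapped the untreated arrays.

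Emilin1 fell to 6.97, 6.23 and 6.90 (-1.31, SE 0.41, adjusted p = 0.0302), below its lowest untreated array. This call was lost without any one of untreated Q7 replicate 2 or 3 or heat-shocked Q7 replicate 2 or 3 (-1.41 to -1.07, adjusted p from 0.0555 to 0.121) and with a further quantile normalization (-1.10, adjusted p = 0.0908). Fbln2 fell to 7.29, 6.35 and 6.92 (-1.40, SE 0.27, adjusted p = 0.00264), or 2.63-fold. Fbln5 fell to 10.29, 10.17 and 10.20 (-1.21, SE 0.19, adjusted p = 0.000571), a tight group below all its untreated arrays. With that actin value as a covariate none of these 4 falls passed. Emilin1 gave -1.55 (adjusted p = 0.417), Fbln2 -1.06 (adjusted p = 0.401), Fbln5 -0.43 (adjusted p = 0.484) and Ltbp1 -0.44 (adjusted p = 0.552), and 436 of all genes passed. The actin value ran from 0.38 to 0.69 on untreated and from 1.35 to 1.60 on heat-shocked Q7 arrays. This fit can therefore hardly separate it from heat shock in Q7 cells, and the cause of the lost calls was not tested. With arrays centred on their median the all-gene median moved to 0.355, Ltbp1 lost its call (-0.43, adjusted p = 0.133), and 70.1% of called genes were higher in place of 40.4%, against 27.4% with centring on ribosomal protein genes.

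In Q111 cells heat shock took away most of the Fbn2 and Emilin1 RNA that set these cells apart at 33 °C. Of the 8 genes 4 fell (Fbn2, Emilin1, Fbln5 and Ltbp1) and 1 rose (Mfap2), with a median change of -0.535. Of all genes 48.1% were called, 28.2% as lower and 20.0% as higher, and the median over all genes was -0.0182. The changes of Mfap5 (-0.46) and Fbln2 (-0.61) did not pass.

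Fbn2 fell to 8.01, 7.25 and 8.06, all far below the untreated arrays and all above background range (-3.50, SE 0.36, adjusted p = 3.26e-05), or 11.3-fold. Mfap5 read 11.68, 11.57 and 11.24 (-0.46, SE 0.31, adjusted p = 0.242), and the other Mfap5 probe set gave -1.35 (adjusted p = 0.00347). Mfap2 rose to 5.70, 5.56 and 5.70 (0.54, SE 0.13, adjusted p = 0.00507), a level like that of untreated Q7 cells and near background range. With centring on ribosomal protein genes its rise was 0.28 and did not pass (adjusted p = 0.105), and the other Mfap2 probe set gave 0.31 (adjusted p = 0.115). Ltbp1 read 12.02, 11.58 and 12.17, none of which reached the untreated range (-0.44, SE 0.16, adjusted p = 0.04). That small change was not firm: it was lost without untreated Q111 replicate 1 or 3 or heat-shocked Q111 replicate 1 or 2 (-0.49 to -0.27, adjusted p from 0.0511 to 0.139).

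Eln read 5.94, 5.55 and 6.06 after heat shock (0.38, SE 0.16, adjusted p = 0.07), overlapping its untreated arrays. Without heat-shocked Q111 replicate 2 the change was 0.53 and passed (adjusted p = 0.0188), and the other Eln probe set, above background range on only 5 arrays, gave 1.01 (adjusted p = 0.00264). Emilin1 fell to 6.83, 6.93 and 5.77, below every untreated array of either line (-3.96, SE 0.41, adjusted p = 3.01e-05), or 15.6-fold. Fbln2 read 10.20, 9.81 and 9.46 (-0.61, SE 0.27, adjusted p = 0.0856), with 1 array inside the untreated range. Without that array, replicate 1, the change was -0.80 and passed (adjusted p = 0.0466). Fbln5 fell to 11.15, 10.93 and 10.93 (-0.66, SE 0.19, adjusted p = 0.0128), just under its lowest untreated array, and this call was lost without untreated Q111 replicate 1 (-0.53, adjusted p = 0.0531), which left 3 of the 8 genes called.

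With arrays centred on their median the all-gene median moved to 0.709. Fbln5 and Ltbp1 turned to 0.07 and 0.29, the uncalled Fbln2 and Mfap5 to 0.11 and 0.27, and Eln rose (1.11, adjusted p = 0.0013). Of called genes 82.5% were higher in place of 41.5%, against 22.6% with centring on ribosomal protein genes. Array medians over the genes averaged 7.37 in untreated and 7.01 in heat-shocked Q7 cells, and 7.36 and 6.64 in Q111 cells. Centring on them thus raised every gene of the heat-shocked groups against the untreated ones. With the actin covariate Fbn2 (-3.30), Emilin1 (-4.10) and Mfap2 (0.59) passed, while Fbln5 gave -0.22 (adjusted p = 0.419), Ltbp1 gave -0.25 (adjusted p = 0.433), and 4381 of all genes passed.

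**Figure D3:**
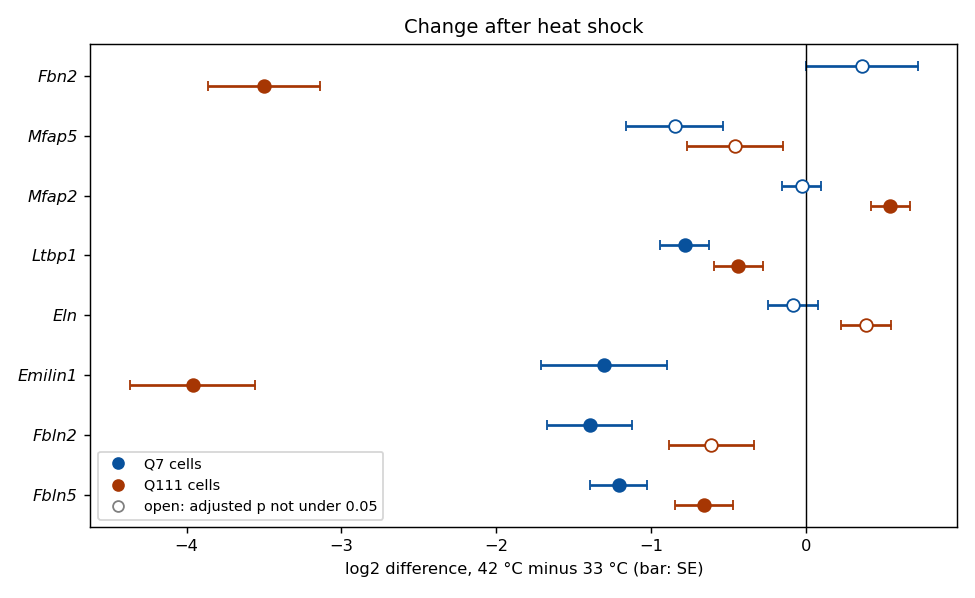
Change after heat shock, 42 °C minus 33 °C, in log2 units (horizontal axis) for the 8 genes in Q7 and Q111 cells. Points are limma estimates from 3 arrays a group, bars are 1 SE, and open points did not pass at an adjusted p of 0.05. Fbn2 and Emilin1 in Q111 cells lie at -3.50 and -3.96, away from all other points.

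The heat shock changes differed between the lines for Fbn2, which fell in Q111 cells and did not pass in Q7 cells, and for Emilin1, which fell in both and further in Q111 cells, and the test of this difference did not pass for the other 6 genes. Of all genes 5.72% were called in this test, 4.51% as lower and 1.21% as higher in Q111 cells. The Fbn2 difference was -3.86 (SE 0.51, adjusted p = 0.00316), from 0.36 in Q7 cells and -3.50 in Q111 cells, and its Q7 side rests on levels in or near background range. The Emilin1 difference was -2.66 (SE 0.57, adjusted p = 0.0238). It was lost without any one of untreated Q7 replicate 1 or 3, heat-shocked Q7 replicate 1 or 3, or untreated Q111 replicate 2 or 3 (-2.70 to -2.33, adjusted p from 0.0508 to 0.0714), which left 1 gene called, and with the actin covariate (-2.55, adjusted p = 0.0852).
The median of the 8 differences was 0.431, opposite in sign to the called pair. Mfap2 (0.57, adjusted p = 0.0923), Fbln2 (0.78, adjusted p = 0.274), Fbln5 (0.55, adjusted p = 0.256), Eln (0.47, adjusted p = 0.269), Mfap5 (0.39, adjusted p = 0.65) and Ltbp1 (0.34, adjusted p = 0.416) all had positive values. With median centring Fbln2 passed (1.16, adjusted p = 0.0409), the all-gene median moved to 0.368, and 62.1% of called genes were higher in place of 21.2%.

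After heat shock 5 of the 8 genes were higher in Q111 than in Q7 cells, none was lower, and Emilin1 did not pass. Of all genes 22.1% were called, 6.58% as higher and 15.5% as lower, and the median of the 8 genes was 0.668 against -0.00416 over all genes. Mfap5 stood 5.41 higher (SE 0.31, adjusted p = 8.17e-07), or 42.7-fold, much as at 33 °C. Fbln2 stood 2.97 higher (SE 0.27, adjusted p = 2.6e-05) and Fbn2 2.41 higher (SE 0.36, adjusted p = 0.000723). Every Q111 array of these 3 genes lay above every Q7 array. Fbln5, at 0.79 (SE 0.19, adjusted p = 0.0105), and Ltbp1, at 0.55 (SE 0.16, adjusted p = 0.0283), were higher by less. The Ltbp1 call was lost without any one of the heat-shocked arrays other than Q111 replicate 2 (0.43 to 0.56, adjusted p from 0.0543 to 0.096). Emilin1 gave -0.19 (SE 0.41, adjusted p = 0.772), Mfap2 0.08 (SE 0.13, adjusted p = 0.702) and Eln 0.44 (SE 0.16, adjusted p = 0.073), all with overlapping arrays. Eln passed without heat-shocked Q7 replicate 2 (0.55, adjusted p = 0.048), without heat-shocked Q111 replicate 2 (0.59, adjusted p = 0.0219) and with median centring (0.82, adjusted p = 0.0203), which raised the share of called genes that were higher from 29.8% to 72.6%.

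Over the 4 groups the genes followed several orders of level. Fbn2 ran from untreated Q111 (11.27) through heat-shocked Q111 (7.77) to heat-shocked Q7 (5.37) and untreated Q7 cells (5.01), and its last neighbours did not differ beyond their spread. Emilin1 ran from untreated Q111 (10.47) to untreated Q7 (8.01), heat-shocked Q7 (6.70) and heat-shocked Q111 cells (6.51), and again the last pair overlapped. Mfap5 and Fbln2 kept both Q111 groups above both Q7 groups. For Mfap5 neither step within a line passed the test (11.95 and 11.50, then 6.93 and 6.08). For Fbln2 the step within Q111 cells did not pass (10.43 and 9.82), while that within Q7 cells did (8.25 and 6.85). Fbln5 (11.66, 11.43, 11.00 and 10.22) and Ltbp1 (12.36, 12.16, 11.92 and 11.37) shared the order untreated Q111, untreated Q7, heat-shocked Q111 and heat-shocked Q7. In both the untreated lines did not differ beyond the test, and untreated Q7 cells were not tested against heat-shocked Q111 cells. Mfap2 spanned only 5.11 in untreated Q111 to 5.65 in heat-shocked Q111 cells, and Eln 5.41 in heat-shocked Q7 to 5.85 in heat-shocked Q111 cells.

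Tested one by one, 7 of the 17 probe sets were higher and 1 lower in Q111 cells at 33 °C, where 6.78% of all probe sets were called, 3.16% as higher and 3.62% as lower. Heat shock lowered 6 and raised none in Q7 cells, where 24.1% were called, 10.0% as higher and 14.1% as lower. It lowered 8 and raised 2 in Q111 cells, where 42.1% were called, 19.8% as higher and 22.3% as lower. After heat shock 7 were higher in Q111 cells and none lower, with 15.4% called, 4.73% as higher and 10.7% as lower. In the difference of effects 2 passed as lower, with 2.68% called, 0.611% as higher and 2.07% as lower.
Both probe sets of Fbn2 and of Mfap5 placed Q111 cells far above Q7 cells. The other Fbn2 probe set read 6.43 at 33 °C and the other Mfap5 probe set 5.48. For the fall of Fbn2 in Q111 cells the other probe set gave -2.16 (adjusted p = 0.00373), and for the difference of effects -2.10, which did not pass (adjusted p = 0.121). The other Emilin1 probe set gave smaller values in the same directions. These were 1.43 at 33 °C (adjusted p = 0.00193), -0.44 in Q7 cells (adjusted p = 0.187), -1.66 in Q111 cells (adjusted p = 0.000247) and -1.22 for the difference (adjusted p = 0.0687).
The other Fbln2 probe set was in background range on all arrays, at a mean of 2.43, and did not differ in any comparison (adjusted p of at least 0.516). The other Fbln5 probe set was above background range on 5 arrays and fell in both lines (-1.87 and -1.53). Of the dimmer Ltbp1 probe sets, the one at a mean of 6.59 gave 1.56 in Q111 cells, against the brightest one's fall, and did not pass (adjusted p = 0.0563). The one at 4.52 fell in Q7 cells (-1.38, adjusted p = 0.0388). The Ltbp1 direction in Q111 cells thus differed by probe set.

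**Figure D4:**
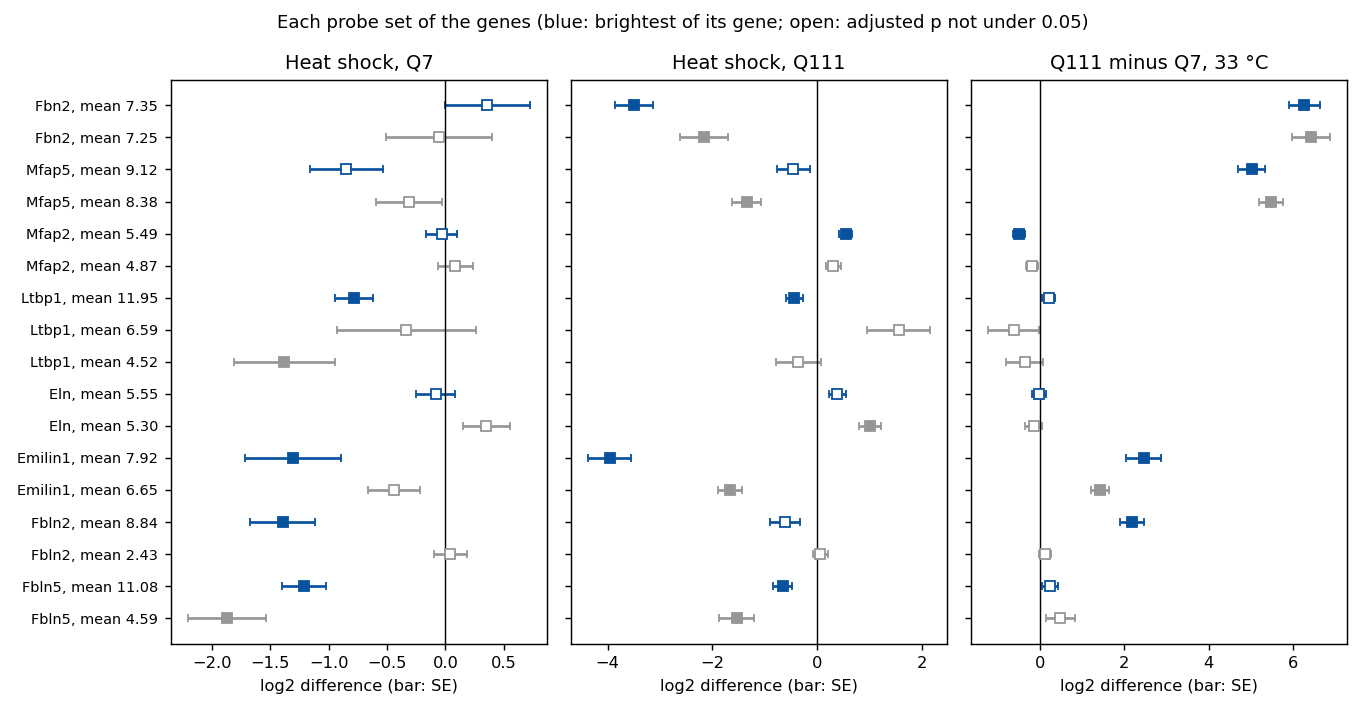
Log2 difference of each of the 17 probe sets (rows, with the gene and the mean level over 12 arrays) for heat shock in Q7 cells, heat shock in Q111 cells and the lines at 33 °C. Blue squares are the brightest probe set of a gene, grey squares the others, bars are 1 SE and open squares did not pass at an adjusted p of 0.05. The Fbn2 pairs agree at 33 °C, at 6.27 and 6.43, and the Ltbp1 probe sets part in Q111 cells, at -0.44 and 1.56.

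Among other genes of elastic fibre assembly and crosslinking, 17 of 19 listed genes were measured. In Q7 cells 9 fell and none rose (median -0.74), where 18.1% of all genes fell, and in Q111 cells 11 fell and none rose (median -0.919), where 28.2% fell. Emilin2, a relative of Emilin1, fell in both lines (-2.74 in Q7 and -1.77 in Q111 cells), as did Loxl4, a crosslinking lysyl oxidase (-2.19 and -1.60). Ltbp4, which helps fibulin-guided elastin assembly, fell in both lines (-1.84 and -1.54) and was in background range on all heat-shocked arrays of Q7 and of Q111 cells. Counted from the bound, its fall was at least 2.51-fold in Q7 cells but only at least 1.02-fold in Q111 cells. In Q111 cells only 1 untreated array was above the bound, so that fall is poorly measured. The proteoglycan Vcan fell in both lines too (-1.65 and -1.79), and in Q111 cells the mean of its probe sets gave 0.06. Median centring made 70.1% of all called genes higher in Q7 and 82.5% in Q111 cells. The counts of the list were then 0 higher and 6 lower in Q7 cells and 3 higher and 5 lower in Q111 cells. With the actin covariate 1 and 6 of the list fell and none rose. At 33 °C 5 of the 17 genes were higher in Q111 cells and 2 lower, where 5.11% of all genes were higher and 5.68% lower. The fibulin gene Fbln1 was in background range on all untreated Q7 arrays (mean 4.93) and read 9.36 in Q111 cells, so it was at least 18.5-fold higher, counting the Q7 arrays at the bound (adjusted p = 7.68e-07). The small proteoglycan Bgn (3.83, SE 0.34, adjusted p = 1.39e-05) and the crosslinking enzyme Lox (1.77, SE 0.18, adjusted p = 3.72e-05) were higher, and Ltbp4 (-1.30) and Vcan (-1.03) were lower. The untreated Q111 level of Ltbp4 lay in or near background range, with a mean of 5.17. The Vcan call was lost in 8 of 18 alternatives (adjusted p up to 0.397), and 1 other Fbln1 probe set gave 0.22 (adjusted p = 0.739).

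The ADAMTS and ADAMTSL proteins, which bind fibrillin and shape microfibrils, and furin made a list of 10 genes with 8 measured. In Q7 cells 1 rose (Adamtsl2, at least 1.41-fold from background range) and 2 fell (Adamtsl3, -1.89, and Adamts6, -0.79), where 30.4% of all genes were called. The Adamts6 call was lost in 10 of 16 alternatives (adjusted p up to 0.637). In Q111 cells 1 rose (Adamtsl1, 0.66) and 4 fell, among them Adamts10 (-2.42), Adamts6 (-1.50) and Adamtsl4 (-1.19), where 48.1% were called. The Adamtsl4 call was lost in 8 of 17 alternatives (adjusted p up to 0.394). Under median centring 70.1% of all called genes were higher in Q7 and 82.5% in Q111 cells. The counts of the list were then 1 and 1 in Q7 cells and 2 and 2 in Q111 cells. With the actin covariate none passed in Q7 cells, and 1 rose and 2 fell in Q111 cells. At 33 °C Adamtsl3 passed, at 10.03 in Q7 cells against a mean in background range, 4.45, in Q111 cells (-5.58, SE 0.46, adjusted p = 8.05e-06). By the brightest probe sets it was the one called gene of the list, but the other Adamtsl1 probe sets gave -2.93 (adjusted p = 5.1e-05) and -3.48 (adjusted p = 3.08e-05), and the mean of all probe sets of a gene gave 1 higher and 2 lower.

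Of 20 genes for TGF-beta ligands, receptors and activation 19 were measured. In Q7 cells 1 rose and 8 fell (median -0.439), and in Q111 cells 2 rose and 12 fell (median -1.28). Over all genes 12.3% rose and 18.1% fell in Q7 cells, and 20.0% rose and 28.2% fell in Q111 cells. Thbs1, a thrombospondin that can activate latent TGF-beta, fell in both lines (-2.49 and -2.15). So did the ligand genes Tgfb2 (-1.38 and -2.11) and Tgfb1 (-1.36 and -2.32) and the integrin subunit Itgb3 (-2.01 in Q7 cells, and by nearly the same in Q111 cells, adjusted p = 0.000853). The signal carrier Smad3 fell in Q111 cells (-2.36) and gave -0.38 in Q7 cells (adjusted p = 0.0814). The receptor gene Tgfbr1 rose in both lines (0.80 and 0.76), and the integrin subunit Itgb8 rose by 2.04 in Q111 cells and gave 0.28 in Q7 cells (adjusted p = 0.478). Under median centring 70.1% of all called genes were higher in Q7 and 82.5% in Q111 cells. Of the 19 genes 3 then rose and 5 fell in Q7 cells, and 7 rose and 10 fell in Q111 cells. With the actin covariate none of the 19 passed in Q7 cells, while 1 rose and 11 fell in Q111 cells. At 33 °C Tgfbr3 (2.74), Tgfb3 (1.90) and Tgfbr2 (1.44) were higher in Q111 cells and Itgb8 (-1.10) was lower.

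Of 18 target genes of TGF-beta 17 were measured. In Q7 cells 3 rose and 4 fell, where 30.4% of all genes were called, and in Q111 cells 4 rose and 6 fell, where 48.1% were called. Smad7, an inhibitor in the pathway, rose by 1.21 and 1.63, and Junb, an early response gene, by 1.32 and 1.21. Tgfbi fell in both lines (-0.97 and -0.95). Its Q7 call was lost in 4 of 17 alternatives (adjusted p up to 0.855), and the Q7 calls of Smad7 and Junb in 1 of 17 each (adjusted p up to 0.136 and 0.211). Postn fell at least 2.07-fold in Q111 cells, to background range, and gave -0.88 in Q7 cells (adjusted p = 0.101), while the smooth muscle gene Tagln rose by 1.89 in Q111 cells. Median centring made 70.1% of all called genes higher in Q7 and 82.5% in Q111 cells. The split of the target genes was then 5 higher and 0 lower in Q7 cells and 9 higher and 2 lower in Q111 cells. At 33 °C Tgfbi (3.28) and Snai2 (0.63) were higher in Q111 cells, and Tagln (-2.32), Acta2 (-1.19) and Tsc22d1 (-0.96) were lower. Tagln and Acta2 are also smooth muscle and pericyte markers, a list of 10 genes whose summed level was 13.93 to 14.14 in untreated Q7 and 12.49 to 13.13 in untreated Q111 cells. This sum of linear levels largely restates these same genes, since Acta2 and Tagln read 13.34 and 12.21 in untreated Q7 cells. Of the 10 markers 4 were lower and 0 higher in Q111 cells at 33 °C, where 10.8% of all genes were called.

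Of the 10 elastin-degrading proteases, all measured, cathepsin K (Ctsk) rose in both lines from levels in background range on all untreated arrays (means of 4.24 and 4.31) to 6.21 in Q7 and 5.99 in Q111 cells. Counted from the bound, the rise was at least 2.09-fold (adjusted p = 1.95e-05) and at least 1.80-fold (adjusted p = 2.81e-05). The membrane protease Mmp14 fell (-1.57 and -2.40), and so did the gelatinase Mmp2 (-1.06 and -1.08). Their Q7 calls were each lost in 1 of 17 alternatives (adjusted p up to 0.385 and 0.263), as was the Q111 call of Mmp2 (adjusted p up to 0.0776). In all 1 rose and 2 fell in Q7 cells, and 2 rose and 2 fell in Q111 cells, where 30.4% and 48.1% of all genes were called, so these counts were near or below the share over all genes. With median centring the Q111 split was 8 higher and 1 lower, where 82.5% of all called genes were higher. Mmp2 (1.35) and Ctsl (0.48) were higher in Q111 cells at 33 °C, and the Ctsl call was lost in 10 of 18 alternatives (adjusted p up to 0.281).

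**Figure D5:**
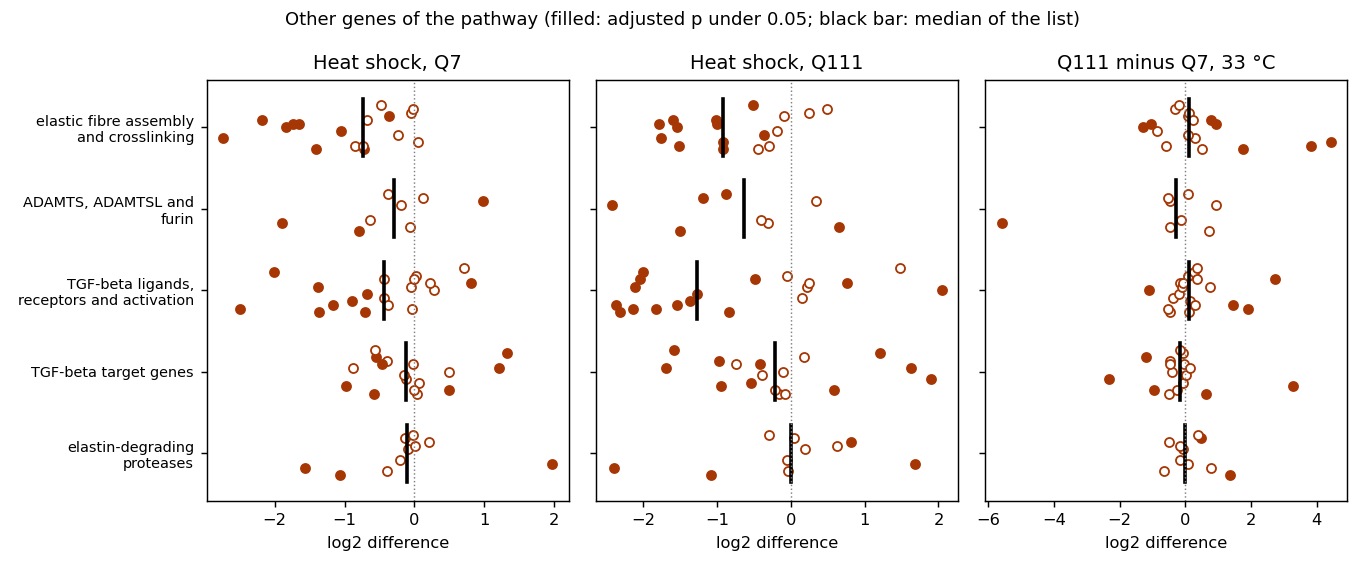
Log2 differences of the other genes of the pathway by list (rows) for heat shock in Q7 cells, heat shock in Q111 cells and the lines at 33 °C. Each point is a gene, filled where the adjusted p is under 0.05, and the black bar is the median of the list. The assembly and crosslinking genes have medians of -0.74 and -0.919 after heat shock and 0.104 between the lines.

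Likeness of profile was described by Pearson's r over the 12 arrays, which share 4 groups and the same normalization, among 11548 genes with a mean above background range. The gene most like Mfap5 was Bhlhb9 (r = 0.997), the one most like Fbln2 was Ptgis (r = 0.992), and those most like Fbn2 and Emilin1 were Shtn1 and Dhx58 (r = 0.986 each). Fbln5 was closest to Rsu1 (r = 0.98), Ltbp1 to Acly (r = 0.967), Mfap2 to Dusp6 (r = 0.93) and Eln to Sgtb (r = 0.889). Within the set, Fbln2 and Mfap5 ran together (r = 0.955), as did Fbln5 and Ltbp1 (r = 0.937), and Emilin1 and Mfap2 ran opposite (r = -0.893). After the group means were taken out, Fbln2 and Mfap5 still varied together from array to array (r = 0.725), as did Emilin1 and Fbln2 (r = 0.846), while Fbln5 and Ltbp1 gave r = 0.469. Fbn2 and Mfap5 turned from r = 0.85 to r = -0.74. Both genes had their widest spread within a group in heat-shocked Q7 cells (SD 0.83 and 0.77). There Fbn2 was in or near background range, so the second of these r values rests largely on poorly measured levels. All the correlations describe these 12 arrays and carry no test.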

How the data were processed

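The authors deposited log2 values, 1 for each probe set, from RMA, per the submitters' processing notes. RMA corrects background, normalizes quantiles and summarizes probes. The quantiles of the deposited arrays still differed, by up to 0.49 from their mean over the arrays. A software version or chip definition was not given in the sources used here. Of 45101 probe sets 64 were controls, 34945 named a single gene, 932 more than 1 and 9160 none in the annotation used here; names come from GEO's platform annotation, and only probe sets naming 1 gene entered the gene fit. limma 3.58.1 in R 4.3.3 modelled all 12 arrays with 4 group means (residual degrees of freedom 8, prior 3.23) and tested 5 contrasts, two-sided, with Benjamini-Hochberg adjustment. The fit was tested on simulated data. Scanner files were not used here, depth does not apply to arrays, and the number of arrays limits the precision.

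The 9 genes and all lists were chosen with earlier results of these data known. Named besides them were up to 3 called genes of a pathway list in each direction, by size of change, in either heat shock comparison and between the lines at 33 °C, and the gene most like each member. Statements on other probe sets and some promoter letter patterns (the GC box and the patterns known from AP-1 and TEAD sites) were added after values were seen.

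Replicate numbers were read from the sample titles. Deviations from group means correlated between same-numbered untreated arrays of the lines (r = 0.516, 0.402 and 0.577), while same-numbered heat-shocked arrays gave 0.345, -0.497 and -0.315. The main fit did not pair arrays, and a block by replicate number was tried only as an alternative. In the fit of all arrays that block also tied the heat-shocked arrays. Replicate arrays shared identical values in 10 to 60 probe sets and were not duplicates. Alternatives were other probe sets or their mean, other centring and normalization, brighter genes, variance trend, array weights, only the groups compared, the block, the actin covariate and each array left out.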

Additional observations from a re-analysis of the deposited data

Results flagged for a closer look

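The heat shock change of Fbn2 differed between the lines, with an interaction term of -3.86 (SE 0.51, adjusted p = 0.00316, limma): Q111 cells fell by 3.50 in log2 level, while Q7 cells, in or near background range at both temperatures, gave 0.36. The heat shock change of Emilin1 differed too, with an interaction term of -2.66 (SE 0.57, adjusted p = 0.0238). Q7 cells fell by 1.31 and Q111 cells by 3.96, and the heat-shocked groups ended at 6.70 ± 0.41 and 6.51 ± 0.65 (SD, n = 3). The other probe sets of both genes gave -2.10 (adjusted p = 0.121) and -1.22 (adjusted p = 0.0687), which did not pass.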

How the results depend on the processing

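Over the 8 genes and 5 comparisons, 691 of 798 recomputed values kept their sign and side of the threshold, 27 changed sign without being called, 56 lost a call, 19 gained one and 5 called ones turned. Under every alternative tried except the other probe set of its gene, Fbn2, Mfap5, Emilin1 and Fbln2 stayed called as higher in Q111 cells at 33 °C, and under that one Fbln2 gave 0.13 (adjusted p = 0.873). Where not given otherwise, the cause of a change was not tested.

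Median centring called 13331 genes in heat-shocked Q111 cells and 6291 between the heat-shocked lines, and turned Fbln5 (0.067) and Ltbp1 (0.29) in heat-shocked Q111 cells. The mean of all probe sets turned Ltbp1 (0.25) and Vcan (0.065) there. With the other probe set of each gene, chosen after seeing the data, Ltbp1 gave 1.56 there and Fbln2 0.042 in heat-shocked Q7 cells. Then 1 of the 8 genes was called for heat shock in Q7 cells, 0 for the difference of effects, 3 between the untreated lines and 2 between the heat-shocked lines. Brighter genes alone gave 5567 calls in heat-shocked Q111 cells and 1046 between the untreated lines, from 9097 genes. Array weights gave 2384 for the difference and 6652 for the lines after heat shock. Only the groups compared gave 2674 for the lines after heat shock, and 3 of the 8 genes for heat shock in Q111 cells. With the actin covariate 0, 3 and 1 of the 8 genes and 436, 4381 and 407 of all genes were called for heat shock in Q7 cells, in Q111 cells and for their difference. Every heat-shocked Q7 array had a higher actin value than every untreated one, so that fit can hardly separate this value from heat shock there.

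The replicate block in the fit of all arrays left 4, 5, 2, 5 and 5 of the 8 genes called, as without it, and changed no count of all genes by over 1.5 times; the block with only the untreated arrays, added after seeing the data, gave 3600 genes and 5 of the 8. It changed no other call.

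With 1 array left out, 3 to 5 of the 8 genes were called for heat shock in Q7 cells, 3 to 5 in Q111 cells, 1 to 2 for the difference, 4 to 5 at 33 °C and 4 to 6 after heat shock. Of all genes 4060 to 5150, 7205 to 8533, 379 to 1238, 1470 to 1669 and 2594 to 4152 were called. The count for the difference, 1041, fell to 590 and 574 without untreated Q7 replicate 2 or 3, to 500 and 379 without heat-shocked Q7 replicate 1 or 3, and to 648, 532 and 683 without untreated Q111 replicate 1, 2 or 3. The count after heat shock, 4018, fell to 2594 and 2597 without heat-shocked Q7 replicate 1 or 3. Levels in background range (Fbn2 in Q7 cells) or near it (Eln, Mfap2) limit what a fall could show.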
